A study of Homo sapiens with 22 samples.

Results

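Transcript levels after 2 h of dexamethasone (Dex) were compared directly with those after 2 h of compound A (CpdA) in MDA-MB-231 cells, a triple-negative breast cancer (TNBC) line. The comparison rested on 4 of the 10 RNA-seq libraries analysed here, 2 from cells given 100 nM Dex and 2 from cells given 10 μM CpdA, chosen by ligand and time from the sample labels. No vehicle library entered it. The other 6 RNA-seq libraries were 2 of vehicle, 2 of 100 nM Dex for 4 h and 2 of 10 μM CpdA for 4 h. All cells had been kept for 3 days in phenol red-free RPMI with 5% charcoal-stripped serum, and every library came from this single line. The labels gave the vehicle libraries no time point. The ligands were used at different concentrations, so ligand and dose cannot be told apart in any difference below.

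Dex is a synthetic glucocorticoid that binds the glucocorticoid receptor (GR), a nuclear receptor that leaves its chaperones in the cytoplasm, enters the nucleus and binds DNA at glucocorticoid response elements. Ligand-bound GR raises transcription of one set of genes and lowers that of many inflammatory genes driven by AP-1 and NF-kB. CpdA is a non-steroidal ligand described as a selective GR modulator. Heat-shock genes are driven by HSF1 when proteins misfold, and immediate early genes answer growth factor, stress and cAMP signals within minutes.

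The deposited values were RPKM for 20668 gene symbols, that is, a gene's reads scaled by transcript length and by the size of the library. All differences are of log2(RPKM + 0.1), and 12713 genes that reached 0.5 RPKM in 2 or more of the 10 libraries were tested. The added 0.1 makes fold changes of genes with a low RPKM smaller than they are. The files gave no read totals, and only relative depth could be read, from the RPKM step that 1 read is worth. Set to 1 in vehicle replicate 1, it was 1.137 and 1.212 for Dex and 1.185 and 1.133 for CpdA at 2 h. The SD of the log2 difference between duplicates was 0.2249 for Dex and 0.193 for CpdA over the genes tested, and no nonzero value was shared by a pair of duplicates. In the 4 libraries the line marker VIM was at 1363 to 1446 RPKM, CD44, AXL, CAV1, KRT18 and KRT8 were at 137 to 373 RPKM, and the receptors ESR1 and PGR lay below 0.003 RPKM. CDH1 was at 0.324 to 0.465 and FOXA1 at 0 to 0.163 RPKM. The other markers that were looked for as low were not absent, since ERBB2 was at 17.9 to 20.3, EPCAM at 9.4 to 10.3 and GATA3 at 3.93 to 4.28 RPKM. Of 7 markers of other cell types, PTPRC, CD3E, COL3A1 and ALB lay below 0.07 RPKM, PECAM1 at 0.207 to 0.266, COL1A1 at 1.63 to 1.85 and CD68, a lysosomal protein that many cells make, at 34.3 to 34.5. Of these 20 markers 11 passed the filter, and 0 were called between the ligands, where 2.34% of all genes tested were called. With so few markers, that count says little about them. At an adjusted p alone, 1 of the 6 line markers was higher with CpdA. Because RPKM are shares of a library, a fall in a cell's total RNA and an unequal change of its genes cannot be told apart.

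Sequences near the genes that differed are shown first, as letter matches to the elements bound by GR, by CREB and by HSF1. The palindrome GAACA, 3 bases of any kind and TGTTC, a full glucocorticoid response element, was searched within 10000 bases on either side of the start of each gene's canonical transcript (GENCODE v44 lifted to GRCh37). It occurred for 8 of 157 genes higher with Dex (5.1%), 1 of 114 higher with CpdA (0.877%) and 252 of all 11471 genes with a window (2.2%). The matches below, in capitals within 8 bases on each side, belong to the clock gene PER1 (chr17:8057771-8057799, minus strand, 2063 bases before the canonical start and inside the span of the whole gene), the inhibitor of apoptosis BIRC3 (chr11:102183615-102183643, plus strand, 4586 bases before), the cyclin-dependent kinase inhibitor CDKN1A (chr6:36647353-36647381, plus strand, 876 bases after) and the thyroid hormone receptor gene THRA (chr17:38216191-38216219, plus strand, 3013 bases before). Like that of PER1, the THRA match lies inside the span of the whole gene.
PER1: agccaagaGAACATGATGTTCccaagtgc
BIRC3: tggaattaGAACAGTATGTTCcctgtaag
CDKN1A: tttggctgGAACAGTTTGTTCccaaggaa
THRA: agcccagaGAACAGGCTGTTCctgctacc
No promoter, defined as 250 bases before to 50 after the RefSeq start on GRCh38.p14, held this palindrome among the 9358 genes with a promoter sequence.

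The cAMP response element TGACGTCA, which is its own reverse complement, occurred in the promoters of 7 of 86 genes higher with CpdA (8.14%), 0 of 120 higher with Dex and 320 of all 9358 (3.42%). Among the 7 were AREG, an EGF receptor ligand (chr4:74445059-74445090, plus strand), DUSP8, a phosphatase of MAP kinases whose promoter held 2 matches (chr11:1572326-1572401, minus strand), PPP1R15A, which directs dephosphorylation of eIF2α (chr19:48872351-48872382, plus strand), and IRF2BPL, a transcriptional regulator (chr14:77028733-77028764, minus strand). The heat-shock element GAA, 2 bases, TTC, 2 bases and GAA, searched on both strands, occurred in 1 of 86 promoters of genes higher with CpdA (1.16%), 0 of 120 higher with Dex and 30 of all 9358 (0.321%). The 1 was HSPA6, an inducible HSP70 (chr1:161524454-161524490, plus strand), where the match reads on the opposite strand. The promoter stretches are from RefSeq on GRCh38.p14, with the matches in capitals.
AREG: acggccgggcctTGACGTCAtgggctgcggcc
DUSP8: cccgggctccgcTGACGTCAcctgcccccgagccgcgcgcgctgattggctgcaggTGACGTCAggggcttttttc
PPP1R15A: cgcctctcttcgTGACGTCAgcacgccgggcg
IRF2BPL: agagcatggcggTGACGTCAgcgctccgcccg
HSPA6: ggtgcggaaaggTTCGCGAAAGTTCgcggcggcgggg
These are matches of letters in fixed windows and were given no test.

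A gene was called when the ligands differed by more than 2-fold with an adjusted p under 0.05 in limma (Benjamini-Hochberg over the 12713 genes). The 8 treated libraries were fitted as 4 groups, so that the spread of each gene was estimated from all 4 pairs of duplicates, and the contrast used the 2 h groups. Of the genes tested, 171 (1.35%) were higher with Dex and 126 (0.991%) were higher with CpdA, 297 in all (2.34%). Without the fold threshold, 1001 genes (7.87%) were higher with Dex and 854 (6.72%) with CpdA. The genes higher with Dex had a median log2 difference of 1.56, and those higher with CpdA had a median of −1.44. More than 8-fold separated the ligands at 17 genes higher with Dex and 11 higher with CpdA. For most genes the ligands lay close together, with a median absolute log2 difference of 0.0865 over all genes tested. All 297 called genes had duplicates that did not overlap between the ligands, as did 58.8% of all genes tested. With 2 libraries against 2, an exact permutation test of a single gene cannot give a p below 0.333, so every call rests on the variance that limma pools over genes. The 2 libraries of a group are biological duplicates of one line, and the p-values measure the spread between such duplicates.

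**Figure D1:**
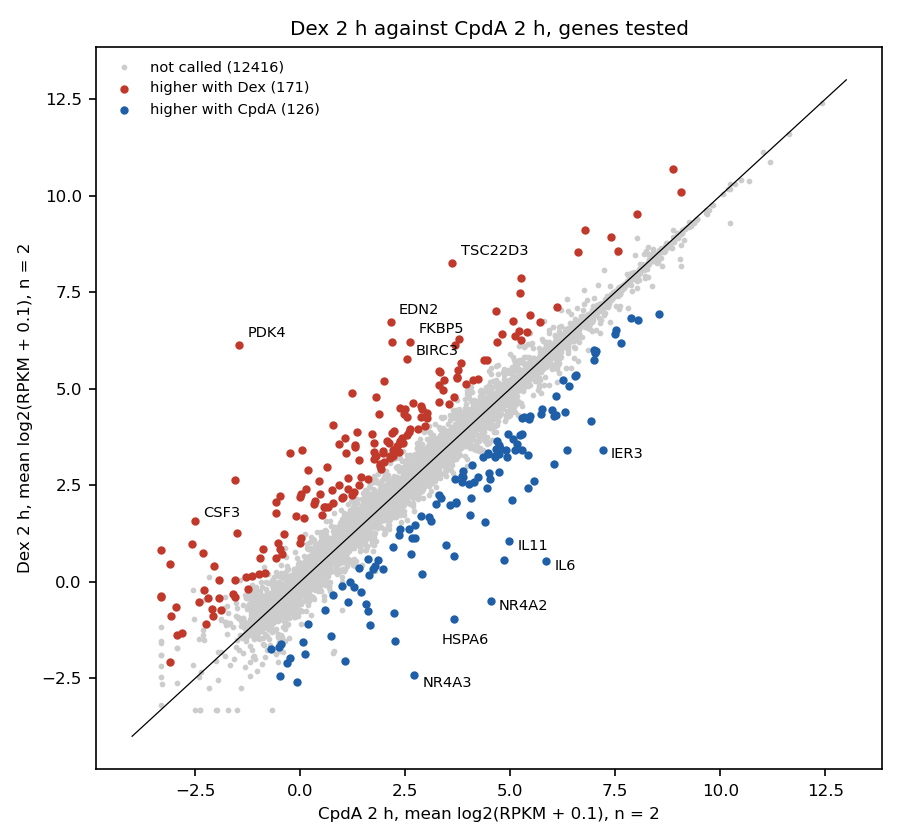
Mean log2(RPKM + 0.1) of the 2 CpdA libraries (x axis) and of the 2 Dex libraries (y axis) at 2 h for the 12713 genes tested, with the 171 genes higher with Dex in red, the 126 higher with CpdA in blue and the line of equal level in black. PDK4 stands farthest above the line at a log2 difference of 7.58, and IL6 farthest below it at −5.33.

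The widest difference was at PDK4 (chr7:95212811-95225828, minus strand, GRCh37), the kinase that switches off pyruvate dehydrogenase. It was at 70.4 and 69.4 RPKM with Dex and at 0.231 and 0.303 RPKM with CpdA, against 0.158 and 0.14 RPKM in vehicle. Only the Dex libraries had an appreciable level. The log2 difference was 7.58 ± 0.11 (SE, n = 2 against 2; limma adjusted p = 1e-08), a 192-fold difference on the log2(RPKM + 0.1) scale. Next came TSC22D3 (chrX:106956451-107020572, minus strand), which encodes the anti-inflammatory protein GILZ, at 304 and 302 RPKM with Dex and 12.4 and 12.1 RPKM with CpdA. The CpdA libraries lay just above vehicle, at 9.79 and 8.22 RPKM. Its log2 difference was 4.62 ± 0.045 (SE, limma adjusted p = 3.8e-09).

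Of the 34 glucocorticoid-induced genes on a list of known targets, all were tested, 24 were called higher with Dex and 0 higher with CpdA. At an adjusted p alone the counts were 30 and 0. Over all genes tested, 1.35% were called higher with Dex and 0.991% higher with CpdA. At an adjusted p alone these shares were 7.87% and 6.72%, and they stand beside each list count at 2 h below. The median log2 difference of the list was 1.83, beside −0.01 over all genes. This list holds BIRC3, NFKBIA, FGD4, PTPN1 and NEDD9, which were known to respond in these samples, so its direction is not independent evidence. The other lists below, and their members, were also chosen with earlier results of these data known. Their counts describe the listed genes and are not independent evidence. Of 5 genes that the study itself picked (BIRC3, NFKBIA, PTPN1, NEDD9 and STK4), 3 were called higher with Dex and 0 higher with CpdA, which is not independent evidence either. Among regulators of GR signalling itself, FKBP5, a co-chaperone that lowers GR's affinity for hormone, was at 75.0 and 73.4 RPKM with Dex and 5.97 and 6.08 RPKM with CpdA. The CpdA values were in the vehicle range of 5.94 and 7.06 RPKM, and the log2 difference was 3.60 ± 0.039 (SE, limma adjusted p = 4.4e-09). Among regulators of transcription, PER1, a repressor within the circadian clock, stood at 34.9 and 37.9 RPKM with Dex against 3.96 and 3.86 RPKM with CpdA. PER1 with CpdA was itself above vehicle, which was at 2.07 and 1.28 RPKM. KLF9, a Krüppel-like repressor, was at 9.75 and 10.2 RPKM with Dex and at 0.683 and 0.823 RPKM with CpdA, and CpdA was not called against vehicle. TFCP2L1, a transcription factor of epithelial and pluripotent cells, was at 10.1 and 11.0 RPKM with Dex and 0.917 and 0.942 RPKM with CpdA (log2 difference 3.37).

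Metabolic enzymes, transporters and metal-binding proteins follow. ANGPTL4, a secreted inhibitor of lipoprotein lipase, was at 32.2 and 26.8 RPKM with Dex and 2.48 and 2.04 RPKM with CpdA, a log2 difference of 3.65 ± 0.16 (SE, limma adjusted p = 2.7e-06). SLC7A2, a transporter of cationic amino acids, was at 16.1 and 17.1 RPKM with Dex and at 1.58 and 1.64 RPKM with CpdA. In both genes the CpdA libraries were below both vehicle libraries. IRS2, an adaptor of the insulin receptor, was 2.16 higher with Dex on the log2 scale, and the thiamine transporter SLC19A2 was 2.11 higher. The metallothioneins, small proteins that bind zinc and copper, had 6 of 11 members tested, of which 3 were called higher with Dex and 0 higher with CpdA (median log2 difference 1.60). MT1E was at 551 and 551 RPKM with Dex and 110 and 111 RPKM with CpdA. MT1X and MT2A had log2 differences of 2.25 and 1.82. Near-identical members of this family can share reads, so the split among them is uncertain.

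Others of the widest differences were at secreted signals and their regulators. EDN2, a vasoconstrictor peptide of the endothelin family, was at 105 and 107 RPKM with Dex and 4.19 and 4.51 RPKM with CpdA. Its log2 difference was 4.57 ± 0.059 (SE, limma adjusted p = 7e-09), and its relative EDN1 differed by 0.97, short of the 2-fold threshold. CSF3, the granulocyte colony-stimulating factor, was at 2.80 and 2.91 RPKM with Dex and at 0.0652 and 0.0877 RPKM with CpdA. Both CpdA libraries were under the vehicle values of 0.221 and 0.185 RPKM, in a range where 0.1 RPKM was added before taking logs, and the log2 difference was 4.07 ± 0.16 (SE). FGD4, an exchange factor for the GTPase CDC42, was at 6.26 and 6.06 RPKM with Dex and 0.216 and 0.274 RPKM with CpdA (log2 difference 4.19). The small membrane protein gene SMIM3 (log2 difference 4.03), FAM46B, which encodes a non-canonical poly(A) polymerase (2.99), and TNFAIP8L3, a lipid transfer protein of the TNFAIP8 family (2.77), completed the 15 widest differences. That ranking kept genes with a mean RPKM of at least 1 and left out short RNAs. Some called genes outside these limits differed more, such as PNMT at 3.55.

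Of the glucocorticoid-induced list, NFKBIA and TNFAIP3 restrain NF-kB. NFKBIA, which encodes IκBα, was at 132 and 126 RPKM with Dex and 25.7 and 24.5 RPKM with CpdA, while vehicle was at 47.9 and 37.8 RPKM. Dex and CpdA thus lay on opposite sides of vehicle. The log2 difference between them was 2.36 ± 0.057 (SE, limma adjusted p = 1.4e-07). TNFAIP3, the ubiquitin-editing protein A20, followed the same order, at 11.0 and 12.3 RPKM with Dex, 5.35 and 3.32 RPKM in vehicle and 2.40 and 2.32 RPKM with CpdA. BIRC3, an inhibitor of apoptosis, was at 52.8 and 55.6 RPKM with Dex and 5.75 and 5.70 RPKM with CpdA (log2 difference 3.22 ± 0.072, SE). Its vehicle libraries, at 17.1 and 8.72 RPKM, were between the ligands and differed from each other. ZFP36, which destabilises cytokine mRNA, was at 49.5 and 52.7 RPKM with Dex and 13.9 and 14.3 RPKM with CpdA, both above vehicle at 6.19 and 8.48 RPKM.

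**Figure D2:**
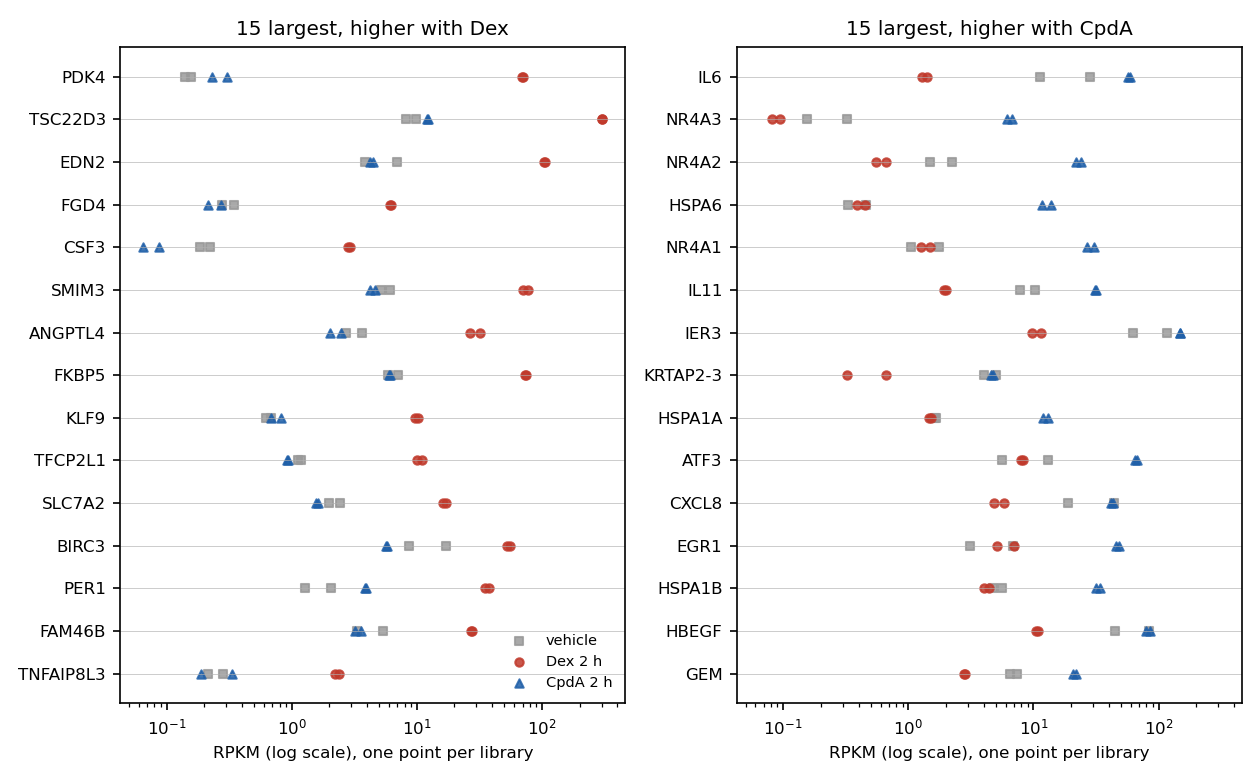
RPKM on a log scale in each vehicle (grey squares), Dex 2 h (red circles) and CpdA 2 h (blue triangles) library for the 15 widest differences in each direction, 1 point per library. Genes with a mean RPKM under 1 and short RNAs were left out. In the left panel most CpdA points sit at or near vehicle, while in the right panel vehicle lies between the ligands for IL6, NR4A2, IL11 and GEM and beside Dex for HSPA6, HSPA1A, HSPA1B and NR4A1.

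On the other side, IL6 (chr7:22765503-22771621, plus strand), a pro-inflammatory cytokine, was the gene most in excess with CpdA. It was at 1.29 and 1.4 RPKM with Dex and at 59.5 and 56.5 RPKM with CpdA. The vehicle libraries, at 28.0 and 11.2 RPKM, lay between the ligands and differed from each other by more than either ligand's duplicates. The log2 difference was −5.33 ± 0.069 (SE, limma adjusted p = 7e-09), a 40.2-fold difference. Of 28 genes on a list of cytokines and other targets of NF-kB and AP-1, 23 were tested, 10 were called higher with CpdA and 1, CSF3, higher with Dex. At an adjusted p alone 16 were higher with CpdA and 3 with Dex, and the median log2 difference was −0.82. Over all genes tested, 0.991% were called higher with CpdA and 1.35% with Dex, and 6.72% and 7.87% at an adjusted p alone. IL11, a cytokine of the IL-6 family, was at 1.94 and 1.98 RPKM with Dex and 31.3 and 31.4 RPKM with CpdA, with vehicle between them at 10.2 and 7.80 RPKM. CXCL8, the neutrophil chemokine IL-8, was at 4.81 and 5.77 RPKM with Dex and 43.5 and 41.7 RPKM with CpdA. For CXCL8 the CpdA level was inside the vehicle range of 18.7 to 44.2 RPKM. IER3, a regulator of apoptosis induced by NF-kB, was at 9.76 and 11.4 RPKM with Dex and 147 RPKM in both CpdA libraries (log2 difference −3.79). IL24, IL1B, CCL2, CXCL2, LIF and CSF2 were the others called, at log2 differences of −2.78 to −1.23. CSF2, the granulocyte-macrophage colony-stimulating factor, stood apart in that both ligands were under vehicle, at 1.14 and 1.19 RPKM with Dex and 3.54 and 2.94 RPKM with CpdA against 12.8 and 6.08 RPKM.

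All 3 NR4A genes, orphan nuclear receptors that are transcribed as immediate early genes, were called higher with CpdA. NR4A2 (chr2:157180949-157198860, minus strand) was at 0.549 and 0.661 RPKM with Dex and 24.2 and 22.0 RPKM with CpdA, a log2 difference of −5.04 ± 0.095 (SE, limma adjusted p = 4.2e-08). NR4A1 was at 1.26 and 1.49 RPKM with Dex and at 26.9 and 30.3 RPKM with CpdA (−4.28). NR4A3 was at 0.0816 and 0.0944 RPKM with Dex and 6.20 and 6.74 RPKM with CpdA (−5.13). For NR4A1 the Dex libraries sat inside the vehicle range of 1.05 to 1.75 RPKM, whereas for NR4A2 they lay under both vehicle libraries, at 2.23 and 1.49 RPKM. Of 16 genes on the list of cAMP and CREB targets, which includes the NR4A genes, 14 were tested, 6 were called higher with CpdA and 0 higher with Dex. The other 3 called were RASD1, a small GTPase, at −1.90, the AP-1 subunit gene FOSB at −1.52 and AREG at −1.30. AREG was at 1.33 and 1.42 RPKM with Dex and 3.60 and 3.44 RPKM with CpdA, vehicle being at 1.67 and 1.61 RPKM.

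Of 24 immediate early genes, all tested, 13 were called higher with CpdA and 0 higher with Dex, and at an adjusted p alone 20 were higher with CpdA and 4 with Dex (median log2 difference −1.04). ATF3, a stress-induced repressor, was at 8.01 and 8.31 RPKM with Dex and 67.5 and 64.2 RPKM with CpdA. EGR1, a zinc-finger factor, was at 5.14 and 7.04 RPKM with Dex and 45.7 and 48.6 RPKM with CpdA. In both genes the Dex and vehicle libraries overlapped. JUN and FOSL1, subunits of AP-1, showed the other arrangement, with CpdA near vehicle and Dex under it. JUN was at 21.8 and 20.1 RPKM with Dex, 78.1 and 78.8 RPKM with CpdA and 70.4 and 59.4 RPKM in vehicle. The 4 members higher with Dex at an adjusted p alone were KLF4, KLF6, KLF2 and KLF10, all Krüppel-like factors, at log2 differences of 0.30 to 0.89.

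The heat-shock list had 25 of 27 members tested, of which 5 were called higher with CpdA and 0 higher with Dex, 14 and 2 at an adjusted p alone, with a median log2 difference of −0.20. HSPA6 (chr1:161494330-161496684, plus strand, GRCh37) was at 0.386 and 0.451 RPKM with Dex, 11.6 and 13.8 RPKM with CpdA and 0.331 and 0.457 RPKM in vehicle. Its log2 difference was −4.62 ± 0.14 (SE, limma adjusted p = 3.7e-07), and both Dex libraries lay inside the vehicle range. HSPA1A was at 1.5 and 1.45 RPKM with Dex and 12.0 and 13.1 RPKM with CpdA, and HSPA1B at 4.03 and 4.40 against 31.5 and 34.3 RPKM. These inducible HSP70 genes are near-identical copies, so reads may have been split between them in a way that is not known. DNAJB1, an HSP40 co-chaperone of HSP70, was at 115 and 113 RPKM with Dex and 226 and 243 RPKM with CpdA, both above vehicle at 84.1 and 79.0 RPKM. The abundant chaperones differed little, HSP90AA1 by −0.34 and HSP90AB1 by −0.27. The 2 members higher with Dex, BAG3 and DNAJB4, which are co-chaperones of HSP70, had log2 differences of 0.44 and 0.66.

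Oxidative and translational stress genes were counted in the same way. Of 23 NRF2 targets tested from 24, 2 were called higher with CpdA and 0 higher with Dex, 10 and 1 at an adjusted p alone (median −0.14). HMOX1, which breaks down heme, was at 9.41 and 9.83 RPKM with Dex and 42.3 and 43.8 RPKM with CpdA (log2 difference −2.15), with vehicle between them at 14.4 and 17.0 RPKM. OSGIN1, an oxidative stress-induced growth inhibitor, was the other, at −1.87. Of 23 tested genes from 24 of the integrated stress and unfolded protein responses, 4 were called higher with CpdA and 0 higher with Dex, 14 and 1 at an adjusted p alone (median −0.35). CHAC1, which degrades glutathione, was at 10.6 RPKM in both Dex libraries and 40.5 and 37.1 RPKM with CpdA. PPP1R15A, SESN2, a regulator of mTORC1, and DDIT3, the transcription factor CHOP, had log2 differences of −1.45, −1.4 and −1.39. ATF4, the transcription factor at the centre of this response, differed by −0.52.

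Growth factors and phosphatases of MAP kinases were called in part. Of 15 growth factor and vasoactive genes tested from 17, 5 were called higher with CpdA and 1, EDN2, higher with Dex (median −0.53). At an adjusted p alone 9 were higher with CpdA and 4 with Dex. HBEGF, which activates the EGF receptor, was at 10.4 and 10.9 RPKM with Dex and 85.2 and 78.6 RPKM with CpdA, with vehicle at 84.2 and 45.0 RPKM. CpdA reached the level of the upper vehicle library, and the log2 difference was −2.93 ± 0.065 (SE, limma adjusted p = 9.2e-08). EREG and AREG, 2 other ligands of that receptor, VEGFA, which promotes vessel growth, and BMP4, a morphogen, had log2 differences of −1.93 to −1.21. Of 10 MAP kinase phosphatase genes tested from 11, 4 were called higher with CpdA and 0 higher with Dex, 7 and 2 at an adjusted p alone (median −0.50). The 4 were DUSP2 at −2.13, DUSP8 at −1.63, DUSP4 at −1.17 and DUSP5 at −1.01. DUSP6, specific for ERK, lay on the other side at 0.96, below the fold threshold. KRTAP2-3, a hair keratin-associated protein gene, and GEM, a GTPase that inhibits calcium channels, completed the 15 widest differences in this direction under the same limits. KRTAP2-3 was at 0.322 and 0.661 RPKM with Dex and 4.72 and 4.55 RPKM with CpdA, where CpdA matched vehicle, and GEM was at 2.84 and 2.79 against 21.8 and 20.6 RPKM.

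**Figure D3:**
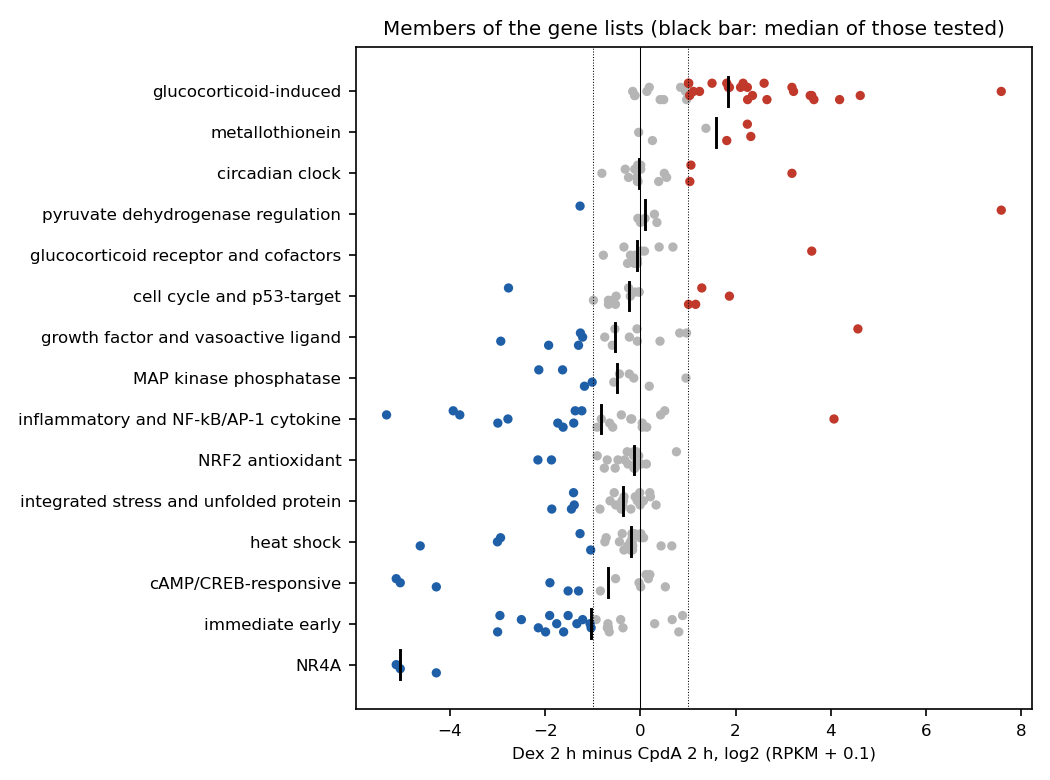
Log2 difference of Dex 2 h minus CpdA 2 h for each tested member of 15 gene lists (1 point per gene, red for genes called higher with Dex, blue for genes called higher with CpdA, grey for the rest), with the list median as a black bar and dotted lines at a 2-fold difference. The glucocorticoid-induced and metallothionein lists have medians of 1.83 and 1.60, the NR4A and immediate early lists of −5.04 and −1.04, and the other medians lie between −0.82 and 0.10.

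Some of the genes looked at were nearly level between the ligands. DUSP1, a MAP kinase phosphatase and known glucocorticoid target, was at 101 RPKM in both Dex libraries and at 90.8 and 86.5 RPKM with CpdA. Both ligands were far above vehicle, at 14.6 and 11.6 RPKM. The log2 difference between them was 0.19 (95% interval 0.10 to 0.28, limma adjusted p = 0.013), a 1.14-fold difference. GADD45A, which responds to DNA damage, was at 121 and 126 RPKM with Dex and 133 and 134 RPKM with CpdA, a difference of −0.11 (95% interval −0.21 to −0.01) that missed the threshold (limma adjusted p = 0.14). STK4, a kinase of the Hippo pathway, differed by −0.02 (95% interval −0.17 to 0.13). The study reported by RT-PCR that Dex lowered STK4 and CpdA did not, at a treatment time that its text does not give. No such difference between the ligands was seen here at 2 h. The GR gene itself, NR3C1, was at 14.6 and 14.7 RPKM with Dex, 24.7 and 25.5 RPKM with CpdA and 22.9 and 20.4 RPKM in vehicle. Its log2 difference was −0.78 ± 0.081 (SE, limma adjusted p = 0.00043). Among 17 tested genes for GR, its chaperones and cofactors, FKBP5 was the 1 called.

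The vehicle libraries were used to say which ligand parted from vehicle at each called gene, at an adjusted p under 0.05 in a limma fit of all 5 groups. The same vehicle pair served both ligands, and the split is a description of genes already called. Against vehicle, 571 of all genes tested (4.49%) were higher and 740 (5.82%) lower with Dex at 2 h, and 240 (1.89%) were higher and 546 (4.29%) lower with CpdA. Of the 171 genes higher with Dex, 124 were up with Dex and not called with CpdA, among them EDN2, FKBP5 and KLF9. A further 15 were up with both ligands and more so with Dex, including PDK4, TSC22D3, PER1, SGK1 and CEBPB. The rise with CpdA was small at PDK4, TSC22D3 and CEBPB, each less than 1.5-fold above vehicle on the log2(RPKM + 0.1) scale. PDK4 was at 0.231 and 0.303 RPKM with CpdA and 0.158 and 0.14 RPKM in vehicle. These values are near the 0.1 RPKM added before taking logs, which makes the PDK4 fold smaller than that of the RPKM themselves. CEBPB, a transcription factor of the acute phase, was at 245 and 220 RPKM with Dex, 38.3 and 38.1 RPKM with CpdA and 25.5 and 26.9 RPKM in vehicle. Another 20 were up with Dex and down with CpdA, including CSF3, BIRC3, NFKBIA and TNFAIP3. In 9 the call came from CpdA alone, which was down, and in 3 neither ligand was called.

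The 126 genes higher with CpdA divided differently. In 48 Dex was down and CpdA was not called, as at IER3, CXCL8, HBEGF, JUN and PLK2, a polo-like kinase. In 37 Dex was down and CpdA was up, among them IL6, IL11, NR4A2, HMOX1 and DDIT3. In 20 CpdA alone was called and was up, among them HSPA6, HSPA1A, NR4A1, ATF3 and EGR1. Both ligands were up in 3, RASD1, FOS and DNAJB1, and both were down in 5, including BMP4 and CSF2. Neither was called in the remaining 13. Vehicle replicate 1 was more than 1.5 times vehicle replicate 2 for 30 of these 126 genes (23.8%), for 13 of the 171 higher with Dex (7.6%) and for 182 of all genes tested (1.43%). The split depended on which vehicle library was kept. A fit with 1 vehicle library has no spread of its own for vehicle, so its counts are not given. Without vehicle replicate 1, more of the 126 genes had Dex down and CpdA up, and fewer had Dex down and CpdA not called. More genes were then up with both ligands in either direction of call, and fewer of the 171 were up with Dex alone. Without vehicle replicate 2, fewer of the 126 were up with CpdA alone. The classes with neither ligand called moved as well. At IER3 the vehicle libraries were at 116 and 62.9 RPKM, both below CpdA at 147 RPKM. When each ligand also had to differ from vehicle by more than 1.5-fold, the genes on opposite sides of vehicle numbered 8 in place of 20 and 15 in place of 37, and those up with CpdA alone numbered 33 in place of 20. Genes up with both ligands were then 9 in place of 15 and 1 in place of 3, and those down with both were 1 in place of 5.

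**Figure D4:**
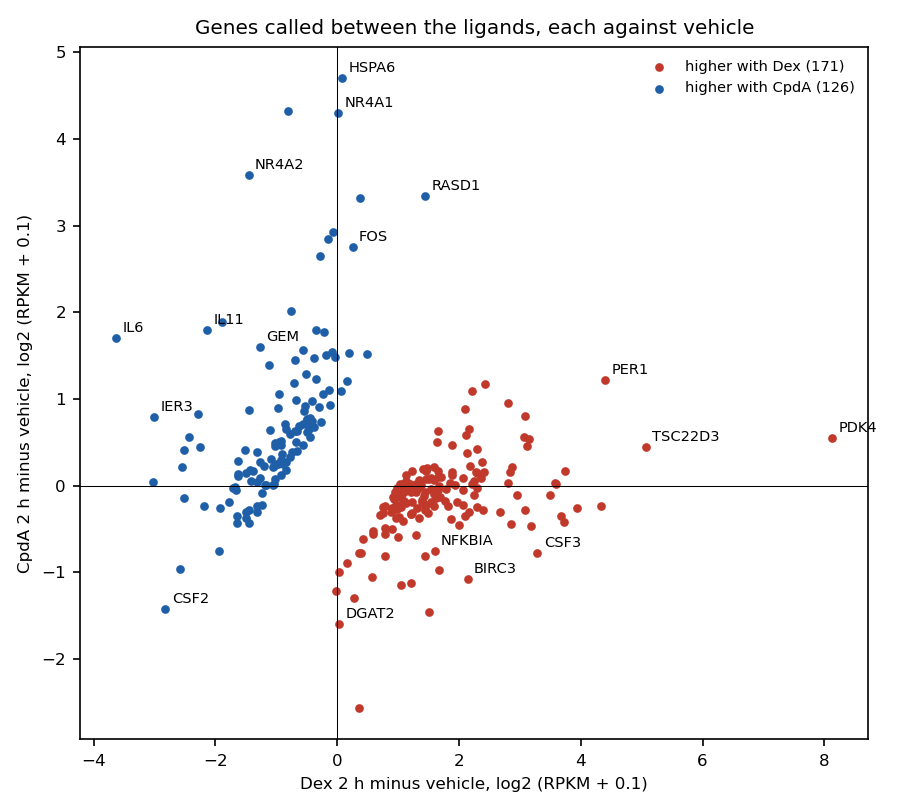
Log2 change from vehicle with Dex (x axis) and with CpdA (y axis) at 2 h for the 171 genes called higher with Dex (red) and the 126 called higher with CpdA (blue), 1 point per gene, both axes sharing the 2 vehicle libraries. HSPA6 and NR4A1 lie near 0 on the Dex axis and above 4 on the CpdA axis, while PDK4 and TSC22D3 lie far out on the Dex axis at 8.13 and 5.06.

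The same genes were read in the 4 h libraries, whose levels the 2 h contrast did not use. Of the 171 genes higher with Dex at 2 h, 168 were higher with Dex at 4 h and 150 passed both thresholds. Of the 126 higher with CpdA, 124 were higher with CpdA at 4 h and 94 passed both. In the opposite direction 0 of the 297 passed an adjusted p under 0.05 in limma, and 0 passed an unadjusted p under 0.05. Over all genes tested at 4 h, 330 (2.6%) were called higher with Dex and 224 (1.76%) higher with CpdA, 554 in all (4.36%), and 45.5% were higher with Dex regardless of any test. The median log2 difference of the genes higher with Dex was 1.95 at 4 h, and that of the genes higher with CpdA was −1.39. A change of the difference between 2 h and 4 h was itself tested as an interaction in limma, and 1008 of all genes (7.93%) passed an adjusted p under 0.05. Among the 171 genes 77 passed, 59 with a wider and 18 with a narrower difference at 4 h. Among the 126 genes 53 passed, 21 with a wider and 32 with a narrower difference. Both sets were picked for a large difference at 2 h, and the interaction uses those same 2 h values. Their counts are therefore not independent of that choice, which by itself favours narrower differences at 4 h.

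The 3 NR4A genes and EGR1 converged between the times. NR4A1 with CpdA was at 7.30 and 8.54 RPKM at 4 h, after 26.9 and 30.3 at 2 h, and its log2 difference from Dex went from −4.28 to −1.98 (interaction 2.31, limma adjusted p = 0.00042). NR4A2 and NR4A3 went from −5.04 to −3.07 and from −5.13 to −3.71, so both were still far apart. IL6 with CpdA was at 22.0 and 19.6 RPKM at 4 h, and its difference went from −5.33 to −3.42. HES1, a repressor downstream of Notch, was nearly level, with a log2 difference of −0.23, at 3.76 and 3.34 RPKM with Dex and 3.99 and 4.37 RPKM with CpdA at 4 h. HSPA6 went the other way, with CpdA at 43.6 and 54.4 RPKM and Dex at 0.360 and 0.302 RPKM at 4 h, and a log2 difference of −6.83 (interaction −2.20, limma adjusted p = 0.00097). DUSP2, HSPA1A and HSPA1B widened as well, and HMOX1 went from −2.15 to −3.63. Of the immediate early list, 7 genes were called higher with CpdA at 4 h, against 13 at 2 h. The NRF2 list had 7 called at 4 h against 2, and the integrated stress and unfolded protein list 7 against 4, while calls higher with CpdA over all genes went from 126 (0.991%) to 224 (1.76%). Whether these lists changed more than other genes was not tested.

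Among the genes higher with Dex, FKBP5 with Dex was at 203 and 212 RPKM at 4 h, after 75.0 and 73.4 at 2 h, while CpdA stayed at 7.80 and 7.96 RPKM. Its log2 difference widened from 3.60 to 4.70 (interaction 1.10, limma adjusted p = 0.00018). KDR, a receptor for VEGF, CALCR, the calcitonin receptor, and KIAA1211L, a gene of little known function, widened by 1.72, 1.60 and 1.76. KDR with Dex was at 4.29 and 4.80 RPKM at 2 h and at 10.6 and 13.6 RPKM at 4 h, and with CpdA at 0.454 and 0.493 RPKM at 4 h. PDK4 and BIRC3 narrowed. PDK4 with Dex was at 37.5 and 39.1 RPKM at 4 h (log2 difference 6.59), and BIRC3 was at 36.7 and 43.0 RPKM with Dex and 8.65 and 8.33 RPKM with CpdA (2.21). DUSP1, nearly level at 2 h, was at 122 and 125 RPKM with Dex and 46.8 and 47.4 RPKM with CpdA at 4 h, so that the log2 difference was 1.39 (interaction 1.20, limma adjusted p = 0.00013). Of the 34 glucocorticoid-induced genes, 31 were called higher with Dex at 4 h and 0 higher with CpdA.

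**Figure D5:**
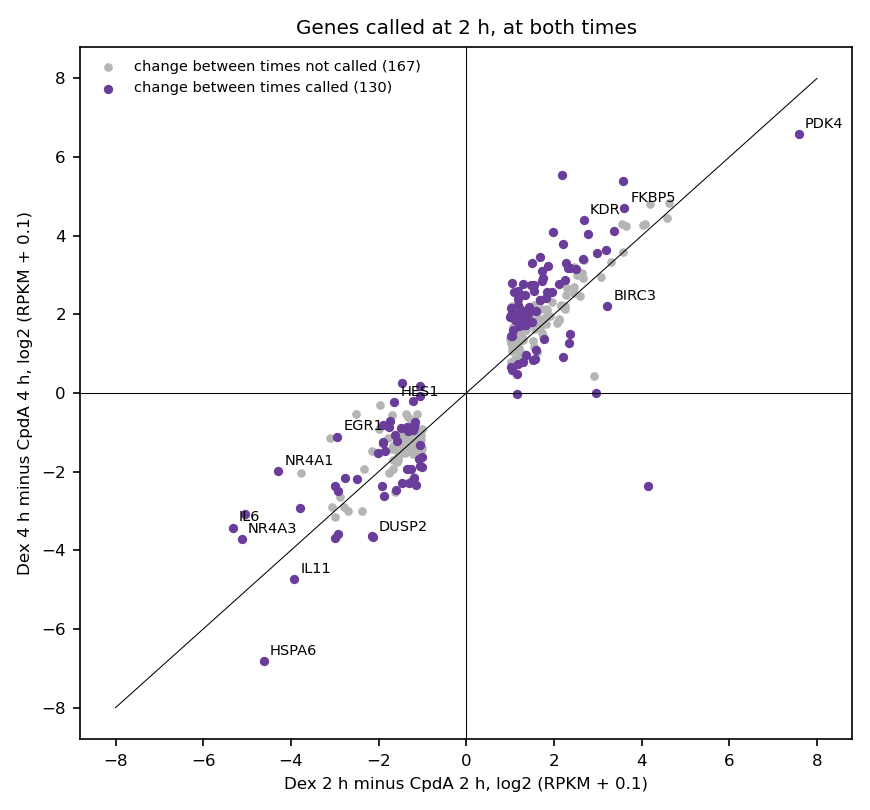
Log2 difference of Dex minus CpdA at 2 h (x axis) and at 4 h (y axis) for the 297 genes called at 2 h, with the 130 whose difference changed between the times by limma's interaction test in purple, the others in grey and the line of equal difference in black. HSPA6 lies below the line, IL6 and NR4A1 lie above it, and the lone purple point in the lower right is MIR3655, a short RNA that was read unevenly between duplicates.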

How the data were processed

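RNA-seq of MDA-MB-231 cells covered 5 groups of 2 libraries (vehicle, and Dex or CpdA for 2 h or 4 h). Alignment by the authors used TopHat on single-end reads, and the deposited values are RPKM that the authors computed in Partek Genomics Suite. The submitters' processing notes list TopHat2 2.0.13, Partek 6.6 and hg19, without a role. How transcripts were combined into symbols is not given in the sources used here.

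Groups were taken from the sample labels. Dex 2 h was compared with CpdA 2 h on log2(RPKM + 0.1) with limma 3.58.1 in R 4.3.3 (lmFit, eBayes with an abundance trend) over the 8 treated libraries, with no further normalization, leaving 4 residual degrees of freedom. The p-values were adjusted by Benjamini-Hochberg over 12713 genes. The fit was tested on simulated data, where 200 genes with a mean log2 level above 0 were shifted. With a shift of 1.5 in log2, 195 of them were called at a fold above 2 with 0 false calls. Shifts of 1 and 2 gave 92 and 197 called, with 1 and 2 false calls. A shift of 1 is the 2-fold threshold itself, so many genes shifted by it fall below the threshold whatever the fit. At an adjusted p alone, 193, 195 and 197 were recovered for shifts of 1, 1.5 and 2, with 17, 6 and 10 false calls.

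Named genes were the 15 widest called differences in each direction with a mean RPKM of at least 1, short RNAs left out, the gene list members, and the 5 called genes with the largest change between times in each sense. Members and lists were chosen with earlier results of these data known. Sequences came from GRCh37 with GENCODE v44 annotation and from RefSeq promoters. Tables and figures were made with Python 3.11.15, pandas 2.3.3 and matplotlib 3.10.9. The ChIP samples of the series were not used here. Alternatives covered the pseudocount, the filter, scaling, the variance model, the samples fitted, the replicate block and leaving out each replicate.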

Additional observations from a re-analysis of the deposited data

Results flagged for a closer look

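The genes below had a difference between Dex and CpdA that changed from 2 h to 4 h, by a test of that change itself (limma interaction, adjusted p under 0.05). Values are the log2 difference of Dex minus CpdA at 4 h minus that at 2 h. Among the genes higher with Dex at 2 h, a positive value means a wider difference at 4 h. The value was 1.098 for FKBP5, 0.753 for TFCP2L1, 0.442 for PER1, 0.581 for FAM46B, 1.289 for TNFAIP8L3, 1.764 for KIAA1211L, 1.72 for KDR and 1.596 for CALCR. It was −0.994 for PDK4 and −1.005 for BIRC3, whose differences were narrower at 4 h.

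Among the genes higher with CpdA at 2 h, a positive value means a narrower difference at 4 h. The value was 1.905 for IL6, 1.412 for NR4A3, 1.975 for NR4A2, 2.307 for NR4A1, 0.867 for IER3, 0.631 for CXCL8, 1.842 for EGR1, 0.428 for HBEGF and 1.417 for HES1. It was −2.204 for HSPA6, −0.811 for IL11, −0.693 for HSPA1A, −0.644 for HSPA1B and −1.524 for DUSP2, whose differences were wider at 4 h. DUSP1, which rose against vehicle with both ligands at 2 h and was nearly level between them, had a value of 1.202. HMOX1, higher with CpdA at 2 h, had a value of −1.478 and was farther apart at 4 h. No group held enough libraries for a search for single libraries that stand apart.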

How the results depend on the processing

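The 30 genes named for the widest differences kept their direction in all 15 alternatives. They kept an adjusted p under 0.05 in limma in each alternative that used all 4 libraries of the contrast. Whether each gene stayed past the fold threshold was not checked. The genes higher with Dex numbered 113 in place of 171 with a pseudocount of 1, which shrinks differences of low genes, and those higher with CpdA 94 in place of 126. The other alternatives gave 143 to 181 and 113 to 130. Leaving out 1 of the 4 libraries of the contrast gave 168 to 174 and 116 to 140. At an adjusted p alone, leaving out 1 library gave 587 to 631 genes higher with Dex in place of 1001 and 438 to 551 higher with CpdA in place of 854, each such fit having 1 library fewer and its lone library being assumed to vary like the rest. Median scaling gave 899 and 945 at an adjusted p alone. Replicate numbers are shared by the groups, and the replicate differences of the groups correlated at −0.06 to 0.20. Between Dex and CpdA at 2 h, the groups of the contrast, the correlation was 0.16. The main fit did not take the numbers as pairs. The fit with the replicate block gave 175 and 126 genes, and 1231 and 1046 at an adjusted p alone. Depth limits the rarely read genes, where 1 or a few reads set the RPKM, and 12 of the 297 called genes are short RNAs that this library kit captures unevenly.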

Other observations

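Other lists were smaller or more mixed. Of 16 cell cycle and p53-target genes tested, 4 were called higher with Dex and 1, the polo-like kinase gene PLK2, higher with CpdA. At an adjusted p alone the larger count lay with CpdA, at 9 against 4 with Dex (median log2 difference −0.23). The cyclin-dependent kinase inhibitors differed in direction. CDKN1C was at 20.2 and 20.1 RPKM with Dex and 5.2 and 5.68 RPKM with CpdA, and CDKN1A at 383 and 379 against 192 and 186 RPKM, whereas CDKN1B was at 7.81 and 7.93 RPKM with Dex and 15.9 and 15.4 RPKM with CpdA, a log2 difference of −0.98 that fell short of the fold threshold. Of 16 circadian clock genes tested, PER1, CIART, a repressor of the clock, and NR1D1, the nuclear receptor REV-ERBα, were called higher with Dex and 0 higher with CpdA. At an adjusted p alone 5 clock genes were higher with Dex and 2 with CpdA (median −0.02). NR1D1 was at 9.27 and 9.64 RPKM with Dex and 4.71 and 4.38 RPKM with CpdA. Of the 7 genes that regulate pyruvate dehydrogenase, PDK4 was called higher with Dex and PDP1, the phosphatase that opposes it, higher with CpdA, at 22.4 and 22.2 RPKM with Dex and 53.6 and 53.9 RPKM with CpdA.

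ALOX15B, a lipoxygenase chosen here after its values were seen, was at 0.392 and 0.498 RPKM with Dex at 2 h and at 4.95 and 4.69 RPKM at 4 h, against at most 0.019 RPKM with CpdA at either time.

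Of 8 genes used as level references, ACTB and GAPDH among them, 0 were called by limma at the fold threshold and 1, TBP, passed an adjusted p alone with a log2 difference of −0.24.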
